A study of Homo sapiens with 18 samples.

Results

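The DDX and DHX genes encode the DEAD-box and DEAH-box RNA helicases, and their members were taken here as the protein-coding genes of GENCODE 44 (hg38) whose name starts with DDX or DHX and a number, apart from DDX1, which is not analysed here. This gave 53 of 20046 protein-coding genes, of which 52 lie on chromosomes 1 to 22 and X. Only windows on these chromosomes were read, so DDX3Y, which is on chromosome Y, could have none. Peaks of DNA/RNA immunoprecipitation sequencing (DRIP–seq, in which the antibody S9.6 pulls down RNA/DNA hybrids) were read for A3B KO and WT MCF10A cells, each kept in DMSO or exposed to 25 ng/ml PMA during 2 h or 6 h, which gave 6 lists. MCF10A comes from normal-like breast epithelium, does not form tumours and keeps basal features. Its A3B KO derivative was made with CRISPR cuts that delete APOBEC3B (A3B) and join its end to the neighbouring APOBEC3A gene, and PMA switches on protein kinase C. Peaks of anti-GFP chromatin immunoprecipitation (ChIP–seq) were read in 3 further lists from MCF10A-TREx-A3B-eGFP cells, in which doxycycline switches on a GFP-tagged A3B: with doxycycline (DOX+, 1 µg/ml for 24 h) and PMA for 2 h, with doxycycline and DMSO, and without doxycycline (DOX-) and DMSO. The A3B-eGFP protein is produced from a transgene on top of the cells' own A3B. Each of the 9 conditions was 1 library made from pooled immunoprecipitations, with its own input, so differences between lists have no replicate check, and no p-value is given.

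RNA helicases of this family use ATP to separate RNA strands or to strip proteins from RNA, and they act at nearly every step of the life of an RNA. Many work in the nucleolus on the RNAs of the ribosome, others in the spliceosome, in the export, translation and decay of mRNA, or as sensors of foreign RNA. Several, among them DHX9, DDX5 and DDX21, are also known to unwind the RNA/DNA hybrid of R-loops, structures in which nascent RNA pairs with its DNA template and leaves the other DNA strand single. Here the genes of these helicases were looked at as places where hybrids form.

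Each list entry spans 500 bp centred on a summit and is called a window here, and it carries its pileup in fragments, its −log10 q and its fold enrichment over input from the authors' peak caller. The DRIP–seq lists held 98432, 120428 and 169126 windows in A3B KO cells with DMSO, PMA 2 h and PMA 6 h, and 91894, 111771 and 165877 in WT cells at the same times. Median fold enrichment lay between 4.31 and 5.26 in these lists, and the number of reads behind them is unknown. All 13 basal breast markers looked up had a window in both DMSO lists, and of 8 luminal markers 6 had a window in A3B KO DMSO and 4 in WT DMSO. Of all protein-coding genes, 71.9% had a window in A3B KO DMSO and 70.1% in WT DMSO. With PMA 2 h and 6 h, 13 and 12 basal and 7 and 5 luminal markers had a window in A3B KO cells. In WT cells these were 13 and 13 basal and 7 and 7 luminal markers. APOBEC3B itself had 0 windows in the 3 A3B KO lists, against 0, 1 and 2 in WT cells with DMSO, PMA 2 h and PMA 6 h.

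The strongest hybrid signal of the family lay at the starts of 2 paralogous genes, DDX5 and DDX17, which encode nuclear helicases that act in splicing and as transcription coregulators. At DDX5 the summit had a fold enrichment of 34.2, 54.4 and 27.7 in A3B KO cells with DMSO, PMA 2 h and PMA 6 h, and of 35.4, 33.2 and 28.9 in WT cells. It ranked between 41 and 157 among all windows of its list, that is, among the strongest of the genome in all 6 lists. The summit kept its place to within 46 bp, 267 to 313 bp inside the start of the canonical transcript, in intron 1. At DDX17 the fold enrichment was 37.9, 45.0 and 26.3 in A3B KO cells and 21.5, 27.4 and 22.7 in WT cells, and the summits lay within 26 bp of each other, 368 to 394 bp inside the start of the canonical transcript and again in intron 1.

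DDX21, a nucleolar helicase needed for ribosomal RNA transcription and processing, had the next strongest start with DMSO and with PMA 6 h, but not with PMA 2 h. Its fold enrichment was 27.2, 7.29 and 12.7 in A3B KO cells with DMSO, PMA 2 h and PMA 6 h, and 20.7, 4.29 and 17.2 in WT cells. In both lines the value at 2 h was the lowest of the 3. The summit lay 204 to 236 bp inside the start of the canonical transcript, in intron 1, in every list. DDX3X, an X-linked helicase of translation initiation, had a summit 905 to 935 bp inside its canonical start, also in intron 1, with 12.4, 16.2 and 11.2 in A3B KO cells and 14.0, 12.3 and 7.77 in WT cells.

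DHX9, also called RNA helicase A, had a strong window at the other end of the gene, which was its strongest with DMSO in both lines and with PMA 6 h in A3B KO cells. That window fell in the last coding exon (exon 28 of 28), 47898 to 47941 bp from the start of a gene of 48636 bp, with a fold enrichment of 12.7, 8.30 and 8.48 in A3B KO cells and 16.2, 6.32 and 7.20 in WT cells. DMSO was the highest of the 3 conditions in both lines. A second region, 732 to 820 bp inside the start in intron 1, had 10.0, 8.94 and 6.18 in A3B KO cells and 9.32, 6.45 and 8.82 in WT cells. This region was above the last exon at PMA 2 h in both lines and at PMA 6 h in WT cells, and in WT PMA 2 h a window upstream of the start (position −894 bp) was the strongest of the gene, at 7.49.

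The hg38 sequence under 1 strong summit of each of these 5 genes is given: the central 300 bases of the WT DMSO window, on the coding strand, 5′ to 3′, with runs of 4 or more G in capitals. They were not the 5 strongest in every list. In A3B KO DMSO, for example, the promoter of DDX39A stood at 13.5, above the 12.4 of DDX3X. DDX5 is at chr17:64505847-64506146 (minus strand), DDX17 at chr22:38505768-38506067 (minus), DDX21 at chr10:68956242-68956541 (plus), DDX3X at chrX:41334948-41335247 (plus) and DHX9 at chr1:182887133-182887432 (plus).
DDX5: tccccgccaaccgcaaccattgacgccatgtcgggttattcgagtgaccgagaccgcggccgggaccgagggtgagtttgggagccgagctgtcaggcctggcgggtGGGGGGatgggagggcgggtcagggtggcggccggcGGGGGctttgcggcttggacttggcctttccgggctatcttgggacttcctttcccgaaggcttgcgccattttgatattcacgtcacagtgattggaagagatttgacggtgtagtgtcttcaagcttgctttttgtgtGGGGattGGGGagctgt
DDX17: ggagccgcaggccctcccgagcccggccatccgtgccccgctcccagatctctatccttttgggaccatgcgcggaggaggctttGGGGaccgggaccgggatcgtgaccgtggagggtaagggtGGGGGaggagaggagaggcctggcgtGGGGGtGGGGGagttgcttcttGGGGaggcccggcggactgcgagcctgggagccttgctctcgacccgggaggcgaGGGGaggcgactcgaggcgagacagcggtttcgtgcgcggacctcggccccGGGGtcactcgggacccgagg
DDX21: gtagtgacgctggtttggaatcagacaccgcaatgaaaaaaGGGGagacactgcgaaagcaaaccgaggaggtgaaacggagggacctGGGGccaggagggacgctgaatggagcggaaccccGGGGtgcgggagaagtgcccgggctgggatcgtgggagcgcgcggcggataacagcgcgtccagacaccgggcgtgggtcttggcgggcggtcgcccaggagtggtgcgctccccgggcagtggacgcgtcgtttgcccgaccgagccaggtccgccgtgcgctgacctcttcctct
DDX3X: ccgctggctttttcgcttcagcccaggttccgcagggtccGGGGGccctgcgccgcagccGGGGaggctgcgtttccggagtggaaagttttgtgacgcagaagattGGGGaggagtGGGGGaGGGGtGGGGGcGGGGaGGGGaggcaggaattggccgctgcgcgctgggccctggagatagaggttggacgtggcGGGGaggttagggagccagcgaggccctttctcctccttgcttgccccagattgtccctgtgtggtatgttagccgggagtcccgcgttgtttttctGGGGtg
DHX9: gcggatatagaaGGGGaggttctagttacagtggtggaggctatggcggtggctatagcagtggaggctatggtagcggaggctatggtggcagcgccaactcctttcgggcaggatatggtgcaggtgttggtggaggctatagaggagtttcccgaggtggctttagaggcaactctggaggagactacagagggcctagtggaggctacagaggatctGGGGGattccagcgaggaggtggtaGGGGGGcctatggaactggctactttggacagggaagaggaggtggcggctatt
All 5 had more G than C on the coding strand, the side that is left single in an R-loop of the gene's own RNA. The strand of the hybrids was not read here. More G than C was also found in 57.8% of the WT DMSO windows of all protein-coding genes and in 62.3% of those at promoters. GC skew, (G − C)/(G + C), was 0.25 at DDX5, 0.22 at DDX17, 0.20 at DDX21, 0.30 at DDX3X and 0.47 at DHX9, against a median of 0.04 over the 64703 WT DMSO windows of all protein-coding genes, 0.07 over those at promoters of all genes and 0.15 over those at promoters of the members. DDX3X held 10 runs of 4 or more G and 1 such run of C, and DDX17 held 7 and 2. The DHX9 stretch, with 3 G runs and no C run, was 57.3% G or C, the lowest of the 5, against 71.7% at DDX17.

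**Figure D1:**
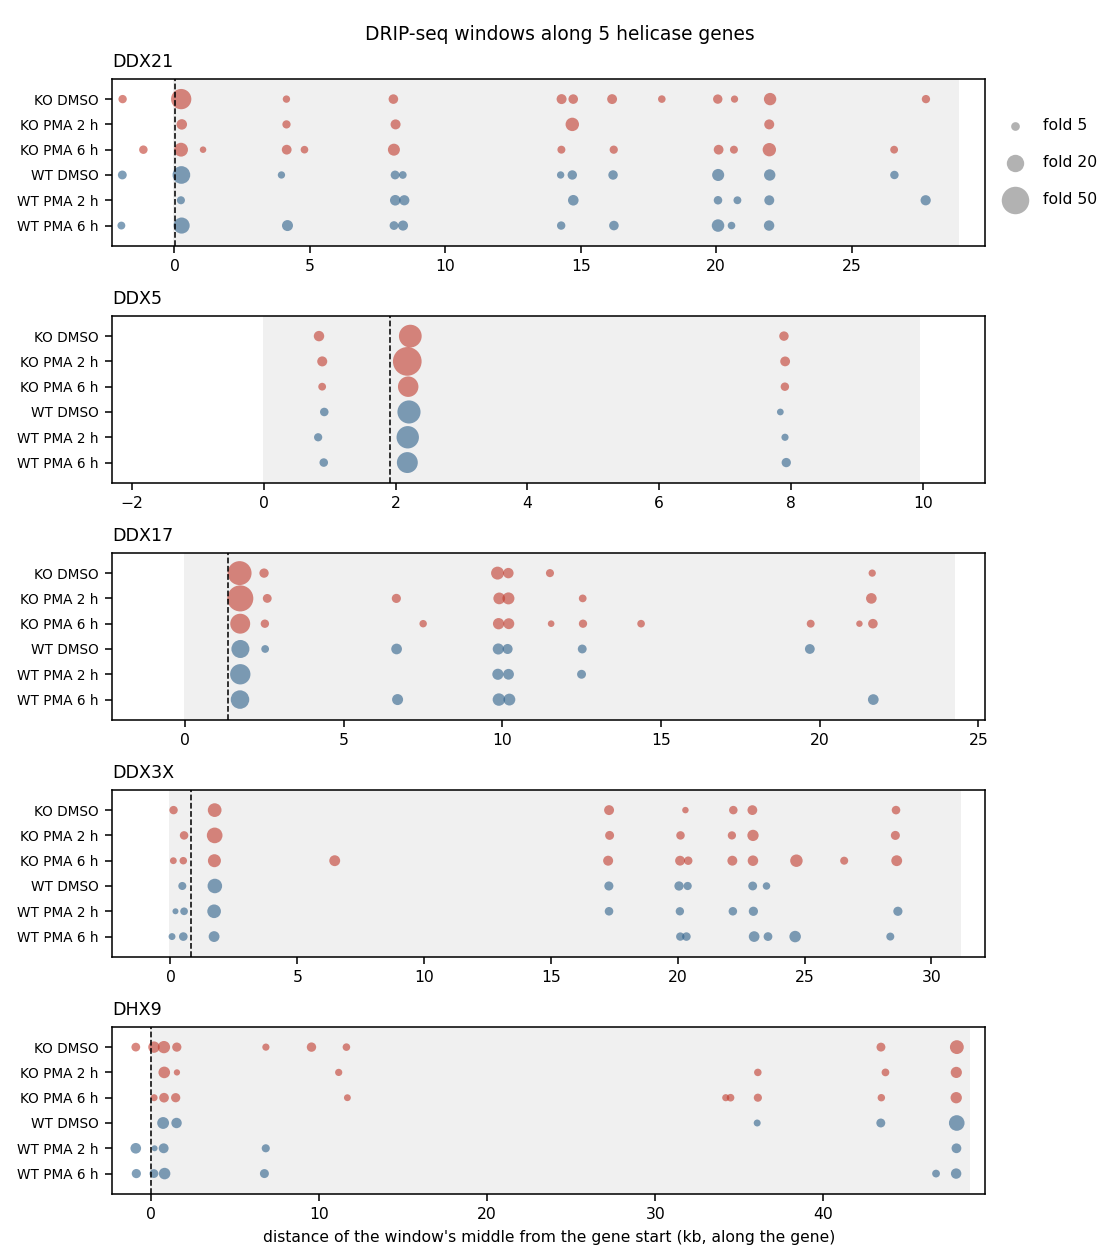
DRIP–seq windows along DDX21, DDX5, DDX17, DDX3X and DHX9, with the distance of each window's middle from the gene's most 5′ start on the x axis (kb) and the 6 lists as rows, A3B KO in red above WT in blue. The area of a point is its fold enrichment, the grey band is the gene and the dashed line the start of the canonical transcript; the large points of DDX5 and DDX17 sit just inside that line in all 6 lists, and the point at the start of DDX21 is smallest at PMA 2 h.

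Hybrid windows were found at a larger share of the family than of protein-coding genes at large. A window in the gene or within 2 kb of its start was found for 48, 43 and 50 of 52 members in A3B KO cells with DMSO, PMA 2 h and PMA 6 h, and for 47, 46 and 48 in WT cells. That is 82.7% to 96.2% of the members, against 70.1% to 77.6% of all 19970 protein-coding genes on the same chromosomes. At the start itself (a summit within 2 kb, called the promoter window from here on), 33, 30 and 36 members had a window in A3B KO cells and 34, 29 and 39 in WT cells, or 55.8% to 75.0% of them, against 31.9% to 38.5% of all genes. With 52 members the 95% Wilson interval, which covers counting error alone, lay above the share of all genes for the promoter windows of all 6 lists (from 44.2% to 70.1% in A3B KO PMA 2 h and from 42.3% to 68.4% in WT PMA 2 h, the lowest). For a window anywhere in the gene it did so in 5 lists, while in A3B KO PMA 2 h it ran from 70.3% to 90.6% and contained the 73.5% of all genes. At promoters the larger share was not particular to the DDX and DHX names. Among 22 other RNA helicases, 16 had a promoter window in at least 1 DMSO list, beside 37 of 53 members and 8491 of 20046 genes.

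Of the 53 members, 41 had a window in all 6 lists, which is 78.8% of the 52 covered, against 57.4% of all genes, and 21 had a promoter window in all 6, or 40.4% against 18.5%. The 21 were DHX9, DHX36, DHX15, DHX29, DDX46, DDX56, DDX31, DDX21, DDX25, DDX55, DHX37, DDX24, DDX28, DDX19B, DDX19A, DDX42, DDX5, DDX39A, DHX34, DDX17 and DDX3X. No list had a promoter window at DDX18, DDX47, DDX51, DHX35, DHX38, DHX40, DHX58, DDX60L, DDX4 and DDX43, which are 19.2% of the 52 against 44.7% of all genes. Besides DDX3Y, whose chromosome was not read, all members had at least 1 window in at least 1 DRIP–seq list. DDX47 and DDX53, a germ-line gene, each had windows in A3B KO PMA 6 h and in no other list.

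When summits within 200 bp of each other were joined, the members held 622 separate regions, of which 77 in 33 genes recurred in all 6 lists and 203 were in a single list. The 33 genes are 63.5% of the 52, against 41.3% of all protein-coding genes. Median spread of the summits of a recurring region was 70 bp. Of the 77 regions, 50 lay in an intron of the canonical transcript, 17 of them in intron 1, 8 in a coding exon, 8 upstream and 11 downstream of that transcript within the annotated gene. DDX46, DHX8 and DHX30 had the most windows in every list, 26, 22 and 19 in WT DMSO, and DDX46 and DHX8 are among the longest members (96363 and 126474 bp). Relative to length, WT DMSO windows were 2.70 per 10 kb at DDX46, 4.02 at DHX30 and 10.4 at DDX39A. DHX8 overlaps ETV4 and DDX46 overlaps C5orf24, so that some of their windows lie in both genes.

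**Figure D2:**
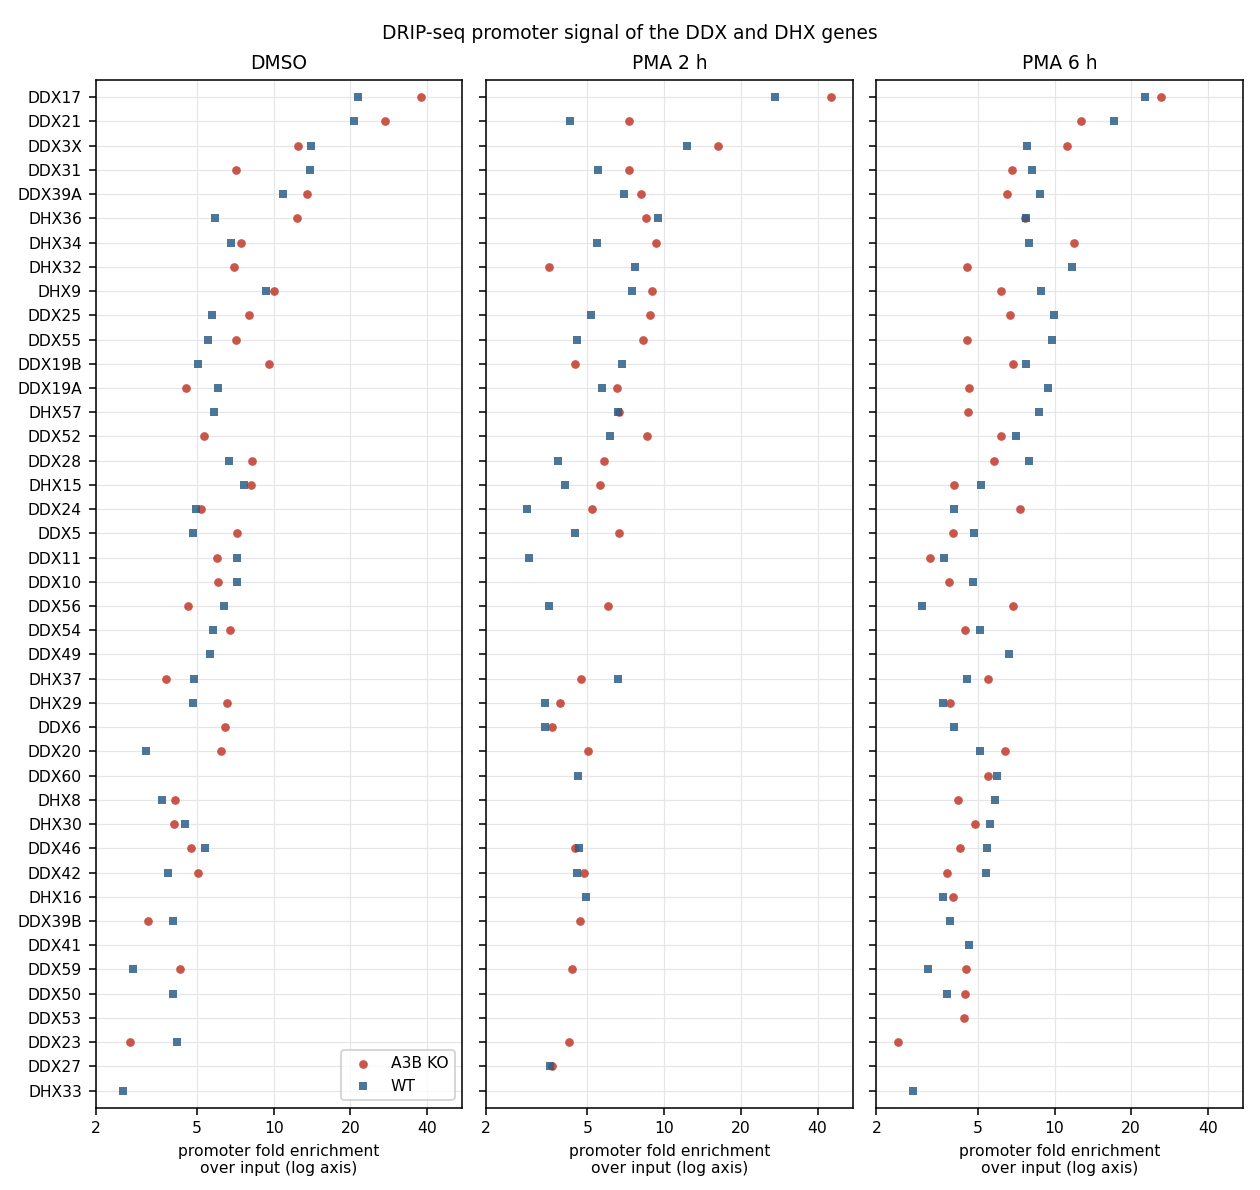
Promoter fold enrichment over input (log axis) of the 42 members with a promoter window in at least 1 list, in DMSO, PMA 2 h and PMA 6 h, with A3B KO as red circles and WT as blue squares; a missing point means no promoter window. DDX17 and DDX21 lead at DMSO in both lines, and at PMA 2 h both points of DDX21 sit among the other members, at 7.29 in A3B KO and 4.29 in WT.

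Among the promoters, DDX17, DDX21, DDX39A, DDX3X and DHX36 were the 5 highest in A3B KO DMSO, and DDX17, DDX21, DDX3X, DDX31 and DDX39A in WT DMSO. DDX31 is a nucleolar helicase whose start lies within 2 kb of that of GTF3C4, so a window there may belong to either gene, and DDX39A is an mRNA export and splicing helicase. DHX36 unwinds G-quadruplexes, structures that G runs can form. The DDX5 region at the canonical start was just outside the 2 kb used for promoters, because the most 5′ annotated start lies 1910 bp before the canonical one. Its promoter value was therefore that of a weaker region 825 to 918 bp inside the annotated start, with 7.19, 6.66 and 4.01 in A3B KO cells and 4.82, 4.48 and 4.84 in WT cells.

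Fold values depend on depth, so promoters were compared by rank. Genes with a promoter window in both lists were ranked by fold enrichment in each, and the change of A over B is the log2 of the gene's rank in list B divided by its rank in list A, with rank 1 the strongest promoter. A value above 0 thus means a higher place in A, and a gene past 1 or −1 was counted as higher or lower. By this measure a gene far down list B has no room to count as lower. The shares of lower and higher genes therefore depend on where genes stand in B. The members were not matched with other genes for that place in any comparison below, and its part in their counts was not tested.

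With PMA for 2 h, lower ranks were more common than higher ones among the helicase genes. In A3B KO cells 9 of 28 ranked members were lower and 1 was higher than with DMSO, where 17% of all 5528 genes were lower and 16.6% higher. In WT cells 7 of 23 were lower and 4 higher, where 17.7% of 4884 genes were lower and 17.2% higher. The median change of the members was −0.20 in A3B KO and −0.32 in WT cells, beside 0.00 and 0.01 over all genes.

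DDX21 had the largest loss of rank of the members in both lines, by −4.57 in A3B KO and −4.80 in WT cells at PMA 2 h over DMSO. The fragment pileup at its summit was 39 in A3B KO PMA 2 h against 129 in A3B KO DMSO, and 41 in WT PMA 2 h against 136 in WT DMSO. At 6 h the pileup was 123 in A3B KO and 122 in WT cells, and the rank change over PMA 2 h was 2.71 and 4.84. The 6 h promoter stood at 12.7-fold in A3B KO cells, where the change over DMSO was still −1.95, and at 17.2-fold in WT cells. Across the alternative rankings the 2 h loss of DDX21 lay between −4.56 and −3.14 in A3B KO and between −4.80 and −3.34 in WT cells. Of the other recurring DDX21 regions, the one in intron 12 had 10.1, 6.63 and 11.8 in A3B KO and 8.61, 6.54 and 7.19 in WT cells, and the one in intron 4 had 6.07, 6.63 and 9.53 in A3B KO and 5.18, 7.43 and 5.08 in WT cells. In neither region was the 2 h value as far below DMSO as at the start.

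Besides DDX21, DHX15, DDX39A and DDX28 were lower at 2 h in both lines, 4 of the 21 members ranked in all 4 lists, where 9.57% of 4065 genes were lower in both. DHX15 helps take the spliceosome apart after splicing. Its promoter had a fold enrichment of 5.62 in A3B KO PMA 2 h against 8.14 in A3B KO DMSO, and 4.07 in WT PMA 2 h against 7.68 in WT DMSO. DDX39A had 8.11 against 13.5 in A3B KO and 6.94 against 10.9 in WT cells, in the same order. DDX28, a helicase of the mitochondrial ribosome encoded by a gene with 1 exon, had 5.80 against 8.20 in A3B KO and 3.83 against 6.69 in WT cells. No member was higher in both lines. DDX31 was lower in WT cells by −2.95 (5.50 with PMA 2 h, 13.9 with DMSO), while in A3B KO cells its values were 7.27 with PMA 2 h and 7.09 with DMSO.

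**Figure D3:**
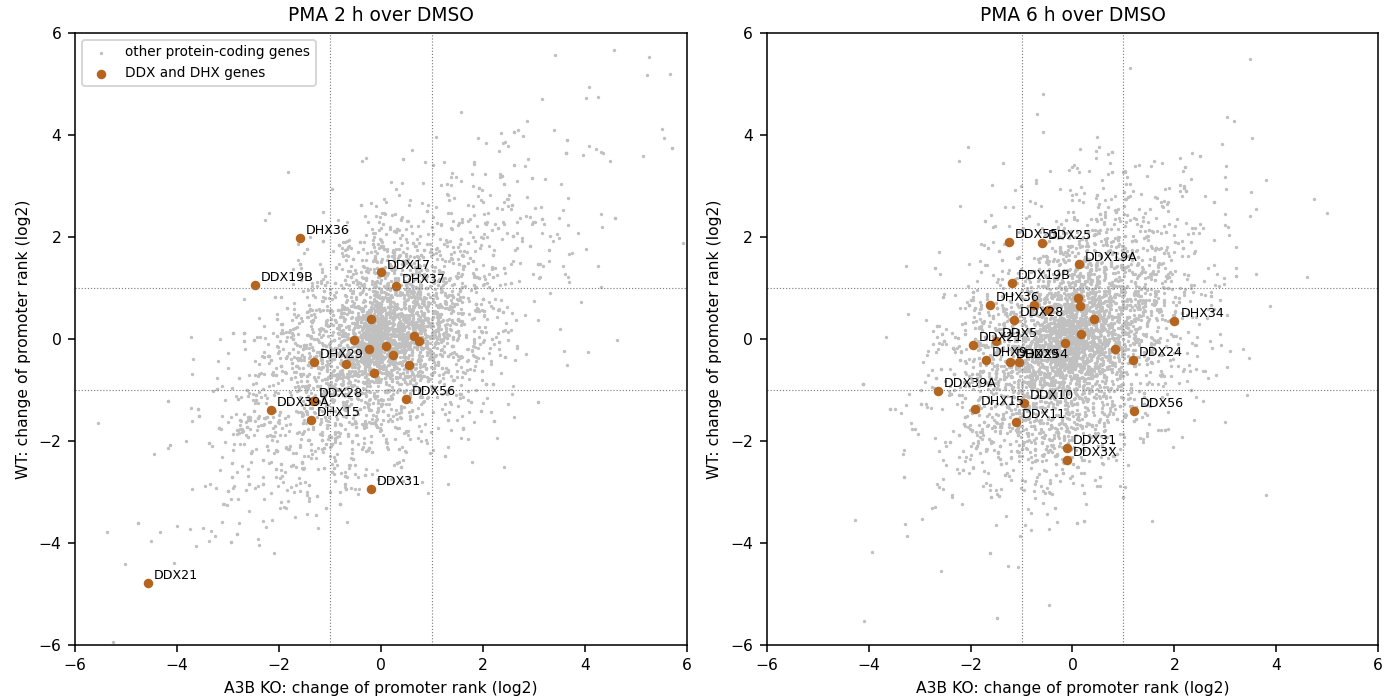
Change of promoter rank (log2) in A3B KO (x axis) and in WT cells (y axis) for PMA 2 h over DMSO (left) and PMA 6 h over DMSO (right); brown points are the DDX and DHX genes, grey points the other protein-coding genes ranked in all 4 lists, and dotted lines mark 1 and −1 (grey points past the ends of the axes are not shown). DDX21 stands at the lower left at 2 h (−4.57 in A3B KO, −4.80 in WT) and DHX36 at the upper left (−1.60 in A3B KO, 1.99 in WT).

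Some promoters changed in whether they had a window at all. At 2 h, 5 of 35 members with a promoter window in either list lost it in A3B KO cells (all genes 18.7%) and 11 of 40 in WT cells (24.9%), and 2 of 35 gained one in A3B KO (19.6%) and 6 of 40 in WT (17.6%). Losses were thus near the share of all genes. DHX30, DDX10, DDX54 and DHX8 lost the promoter window at 2 h in both lines and had a window again at 6 h in both. In WT cells the highest promoter summit of DHX30 lay at −984 bp with DMSO and 502 bp at 6 h. At DDX54 it lay at 1855 and 213 bp, and at DHX8 at 411 and −912 bp. A return of the same window is thus not shown for these genes in WT cells. The summits of DDX10 in WT cells (309 and 243 bp) and those of DHX30, DDX10, DDX54 and DHX8 in A3B KO cells lay closer together. The shares of all genes that lost, regained or gained a promoter window in both lines are not given. The genes named here, and DDX27 below, are therefore a description and do not set the members apart from other genes. DHX30 is needed for the mitochondrial ribosome, DDX10 and DDX54 for making cytoplasmic ribosomes and DHX8 for release of spliced mRNA. Their promoter fold enrichment was modest, 4.06 and 4.48 at DHX30 and 6.06 and 7.16 at DDX10 in the A3B KO DMSO and WT DMSO lists, and 6.76 and 5.80 at DDX54. DDX27, another ribosome biogenesis gene, gained a promoter window at 2 h in both lines (3.62 in A3B KO and 3.56 in WT) and had none at DMSO or at 6 h.

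Counted over whole genes, the helicases had fewer windows at 2 h although the lists were longer. The members together had 297, 268 and 380 windows in A3B KO cells with DMSO, PMA 2 h and PMA 6 h, and 285, 274 and 334 in WT cells. At 2 h, 26 of 50 members had fewer windows and 15 more in A3B KO cells, where 32.3% of all genes with a window had fewer and 48.5% more. In WT cells 22 of 49 had fewer and 18 more, where 35.7% had fewer and 45.4% more. The WT difference turned with only entries of −log10 q of at least 5, when 17 of 48 had fewer and 22 more (all genes 32.5% and 47.1%), while in A3B KO cells 21 of 48 had fewer and 17 more (26.0% and 53.6%).

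The 16 genes of ribosome biogenesis had 73, 52 and 86 windows in A3B KO and 79, 55 and 78 in WT cells, and 11 of 15 had fewer at 2 h in A3B KO and 10 of 15 in WT cells. DDX56, which acts in assembly of the large ribosomal subunit, had 8, 2 and 6 windows in A3B KO and 8, 1 and 3 in WT cells. DDX49 had 6, 3 and 3 in A3B KO and 9, 1 and 6 in WT cells, and DDX51 had 3, 0 and 1 in A3B KO and 3, 0 and 2 in WT cells. DDX18 and DDX51 had no window at 2 h in either line, and DDX18 had only 2 in A3B KO and 1 in WT cells with DMSO. DDX47 had no window at 2 h or with DMSO in either line. With only entries of −log10 q of at least 5, 8 of 15 had fewer windows in each line. Not all of the group moved this way: DDX27 had 4, 11 and 7 windows in A3B KO and 4, 7 and 5 in WT cells, DHX37 had 5, 8 and 10 in A3B KO and 6, 9 and 12 in WT cells, and DDX50 had 4, 7 and 8 in A3B KO and 6, 8 and 9 in WT cells. The 6 genes of other or less certain role also had fewer windows at 2 h, with 36, 22 and 42 in A3B KO and 32, 23 and 40 in WT cells.

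The 15 genes of splicing and nuclear mRNA processing had 116, 111 and 144 windows in A3B KO and 111, 108 and 120 in WT cells, a smaller difference between DMSO and 2 h. The 7 genes of mRNA export, translation and decay had 41, 52 and 64 windows in A3B KO and 34, 52 and 52 in WT cells. DDX6, a decapping and translational repression factor, had 6, 21 and 10 windows in A3B KO and 7, 11 and 11 in WT cells. Without DDX6 the group had 35, 31 and 54 windows in A3B KO and 27, 41 and 41 in WT cells, so that the larger number at 2 h in A3B KO cells rested on this gene, and in WT cells it did not. The only DDX6 region in all 6 lists, in intron 2, had a fold enrichment of 4.82, 7.69 and 7.20 in A3B KO and 5.20, 7.95 and 8.68 in WT cells, lowest with DMSO in both lines. The 3 genes of innate RNA sensing (DDX60, DDX60L, DHX58) had 4, 5 and 10 windows in A3B KO and 5, 3 and 9 in WT cells, and the 4 germ-line genes 4, 3 and 10 in A3B KO and 3, 10 and 7 in WT cells.

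**Figure D4:**
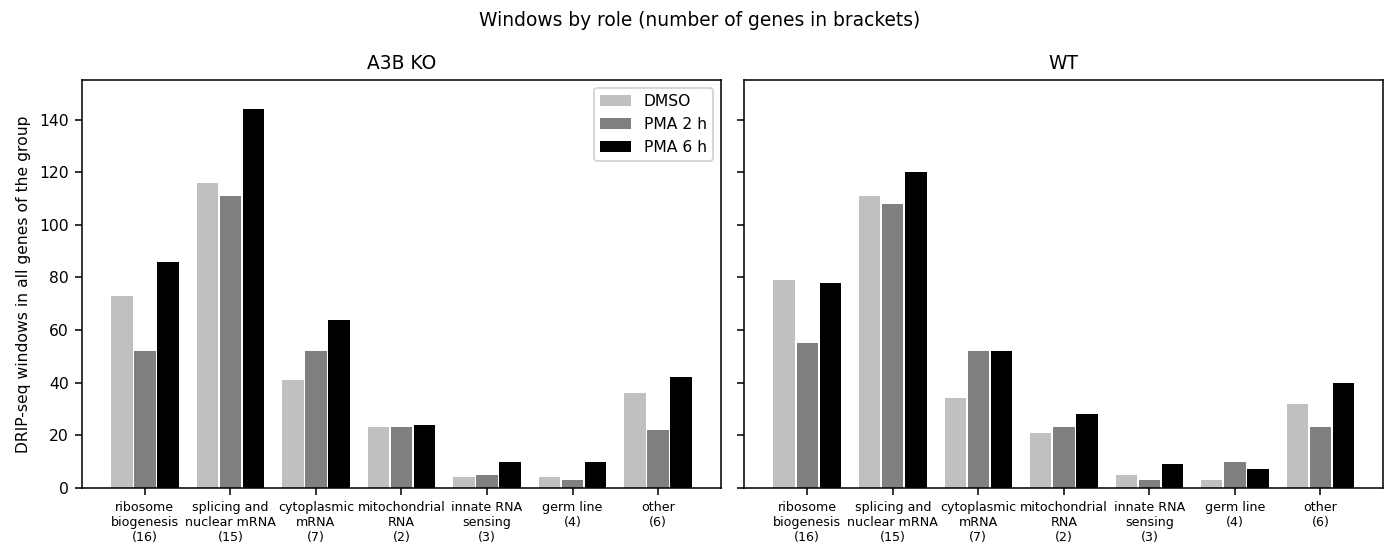
Number of DRIP–seq windows (y axis, from 0) in all genes of each role group, A3B KO on the left and WT on the right, with bars for DMSO, PMA 2 h and PMA 6 h. The ribosome biogenesis bars dip at PMA 2 h in both lines, to 52 in A3B KO and 55 in WT, while the bars of the cytoplasmic mRNA genes are both at 52 at 2 h, above DMSO, and in A3B KO 21 of these windows are in DDX6.

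With PMA for 6 h, lower ranks outnumbered higher ones in A3B KO cells more than in WT cells. In A3B KO cells 13 of 31 ranked members were lower and 3 higher than with DMSO, where 15.2% of 5807 genes were lower and 14.6% higher. In WT cells 7 of 33 were lower and 5 higher, where 17.3% of 5577 genes were lower and 17% higher. Whether the lines differ was not tested, since each has 1 library per condition. The A3B KO count depended on the measure used for ranking: 5 of 31 were lower when promoters were ranked by pileup and 8 of 31 when ranked by −log10 q, beside 9.64% and 12.7% of all genes. With the highest summit anywhere in the gene, 12 of 47 were lower and 11 higher in A3B KO cells and 10 of 46 each way in WT cells.

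The 4 largest losses in A3B KO cells were at DDX39A (6.49 with PMA 6 h, 13.5 with DMSO, change −2.63), DDX21 (−1.95), DHX15 (4.02 and 8.14, −1.92) and DHX9 (6.18 and 10.0, −1.70), and the gains were at DHX34 (11.9 and 7.45, 2.00), DDX56 (1.2) and DDX24 (1.18). DHX34 acts in nonsense-mediated decay. In WT cells the largest losses were at DDX3X (7.77 with PMA 6 h, 14.0 with DMSO, −2.37), DDX31 (−2.14), DDX11 (−1.63) and DDX56 (−1.42), and the largest gains at DDX55 (9.74 and 5.52, 1.91), DDX25 (1.89), DDX19A (1.46) and DHX57 (1.17). DDX11, a DNA helicase of sister chromatid cohesion, has near-identical copies elsewhere in the genome, and DDX19A and DDX19B are close paralogues next to each other, so that reads there may be placed uncertainly. The starts of DDX24, DDX25 and DHX57 lie within 2 kb of those of IFI27L1, PUS3 and MORN2. Windows there may belong to either gene, here and in the comparisons between the lines below. The DDX39A summits at 6 h and with DMSO lay 804 bp apart in A3B KO and 834 bp apart in WT cells, and those of DDX56 lay 607 and 3167 bp apart. DHX15, DDX11 and DDX39A were lower at 6 h in both lines, 3 of 28 members, where 6.65% of 4559 genes were lower in both.

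Between A3B KO and WT cells with DMSO, 6 of 30 ranked members were higher and 1 lower in A3B KO, where 11.3% of 5701 genes were higher and 11% lower. The 4 largest gains were at DHX36 (12.3 in A3B KO, 5.90 in WT, change 2.54), DDX19B, an mRNA export helicase (9.57 and 5.03, 2.12), DDX17 (37.9 and 21.5, 1.79) and DDX20, a protein of the SMN complex (6.19 and 3.16, 1.32). The loss was at DDX31 (7.09 in A3B KO, 13.9 in WT, −2.44). DDX5 also counted as higher (1.2) from its weaker region. With promoters placed at the canonical start, where its strong region is found, its change was 0.00. Of the 6 higher members, DDX19B, DDX20, DDX5 and DDX25 have another protein-coding start within 2 kb. Without members of this kind, 2 of 22 were higher and 0 lower, and with ranks by pileup 1 of 30 was higher. The annotated start of DDX19B is 44 bp from that of AARS1, and its canonical start lies 9523 bp further inside the gene. The DDX19B summits lay upstream of the annotated start, at −1294 bp in A3B KO and −1689 bp in WT cells. A window there may belong to either gene.

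At PMA 2 h, 4 of 26 members were higher and 4 lower in A3B KO than in WT cells, where 11.6% of 5313 genes were higher and 11.4% lower. The gains were at DHX34 (9.26 in A3B KO, 5.44 in WT, 1.37), DDX55 (1.34), DDX25 (1.3) and DDX21 (7.29 and 4.29, 1.02, and −0.46 when ranked by pileup). The losses were at DHX32 (3.53 and 7.71, −2.25), DDX19B (−1.44), DHX37 (−1.24) and DHX36 (8.46 and 9.50, −1.14). At DHX32, whose start is 128 bp from that of FANK1, the summits compared lay at different places, at 1076 bp from the start in A3B KO and, upstream of it, at −1732 bp in WT cells.

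At PMA 6 h, 4 of 34 were higher and 7 lower, where 12.1% of 6163 genes were higher and 11.9% lower. The gains were at DHX34 (11.9 in A3B KO, 7.97 in WT, 2.09), DDX3X (11.2 and 7.77, 1.94), DDX24 (1.71) and DDX56 (1.68), and the 4 largest losses at DHX32 (4.54 and 11.7, −3.33), DDX55 (4.53 and 9.74, −2.36), DDX19A (4.63 and 9.45, −2.17) and DHX57 (4.59 and 8.68, −1.77). The highest summit anywhere in the gene gave the other order, with 11 of 46 higher and 6 lower. The DHX32 summits again lay apart, at 1027 bp in A3B KO and −1699 bp in WT cells, and those of DDX56 lay at −1680 bp in A3B KO and 1495 bp in WT cells. Over the 7 comparisons, 11 of 75 changes past 1 or −1 set side by side summits more than 500 bp apart. DHX36 and DDX19B, higher in A3B KO with DMSO, were lower in A3B KO at 2 h. DHX34 was higher in A3B KO at both PMA times, and with DMSO its values were 7.45 in A3B KO and 6.77 in WT cells.

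Other RNA helicases outside the DDX and DHX names were read beside them. Of 22 such genes, 13 were ranked in A3B KO and 10 in WT cells at PMA 2 h over DMSO, and 6 of 13 were lower and 1 higher in A3B KO, and 3 of 10 lower and 0 higher in WT cells. MTREX, 1 of the 6, starts 295 bp from DHX29 and has the same window, and without it 5 of 12 were lower in A3B KO and 3 of 9 in WT cells. EIF4A2, a translation initiation helicase, had the strongest promoter of them, with 54.0, 36.3 and 35.5 in A3B KO and 43.4, 40.1 and 30.1 in WT cells with DMSO, PMA 2 h and PMA 6 h. EIF4A1 followed with 27.1, 18.2 and 14.1 in A3B KO and 27.4, 22 and 31.8 in WT cells.

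Anti-GFP windows were few at these genes. In the ChIP–seq lists 7 members had a window with doxycycline and PMA 2 h, 6 with doxycycline and DMSO and 2 without doxycycline, or 13.5%, 11.5% and 3.85% of the members, against 7.81%, 9.67% and 1.64% of all genes. Wilson intervals for the members, from 6.68% to 25.3% with doxycycline and PMA and from 5.40% to 23% with doxycycline and DMSO, contain the shares of all genes. All of these windows had a fold enrichment between 1.64 and 3.06.

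DHX34 had 2 overlapping windows at its start with doxycycline and PMA, with fold enrichment 2.34 and 2.01, and none in the other ChIP–seq lists. DDX46 had a window at 2.32 with doxycycline and PMA and 2.43 with doxycycline and DMSO in almost the same place, which overlapped a DRIP–seq window in all 6 lists. DDX3X had 1 window (2.64) with PMA and 2 (2.30 and 2.82) with DMSO, near the end of the annotated gene. DDX39A, DDX19B and DHX8 had 1 window each with PMA alone, and DDX17 and DDX55 1 each with doxycycline and DMSO alone. DDX59 had 2 windows at its start in every ChIP–seq list, and the fold enrichment was at most 1.68 with doxycycline, against 2.91 and 2.76 without it. DHX30 had 2 windows with doxycycline and DMSO (2.00 and 3.06), of which the weaker overlapped its window without doxycycline (2.19). At −log10 q of at least 5, DDX46 and DHX8 were left with doxycycline and PMA, and DDX46 with doxycycline and DMSO. These windows lay downstream of the canonical transcript, within the annotated gene. They were 87320 (PMA) and 87233 bp (DMSO) from the start of DDX46 and 61888 bp from that of DHX8. DDX46 overlaps C5orf24 and DHX8 overlaps ETV4, and to which gene these windows belong was not tested. DDX5, DDX21 and DHX9 had no anti-GFP window in any list.

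In base composition the helicase windows differed little from those of other genes when all windows were taken. The median GC content of the 285 WT DMSO windows of the members (central 300 bases) was 49.7%, against 48.3% over all genes, and the median GC skew on the coding strand was 0.09 against 0.04. GGGG was found on the coding strand of 60.4% of the members' windows against 58.3%, and CCCC, its complement, in 50.9% against 52.4%. At promoters the differences were larger: the 59 promoter windows of the members had a median GC content of 53.3% against 56.7% over all genes and a median GC skew of 0.15 against 0.07, GGGG was found in 69.5% against 77.2%, and CCCC in 59.3% against 70.6%. Of the members, 48 had a start sequence in RefSeq (GRCh38.p14, 250 bases before to 50 after the start), with a median GC content of 60.7% against 63.0% over 15345 genes. GGGG was in 68.8% of the members' start sequences against 80.9%, and CCCC in 72.9% against 79.9%. The 21 members with a promoter window in all 6 lists had a median of 61.3% GC and the 9 matched members with none 60.7%. Median GC skew of the start sequences was −0.03 for the members against 0.01 over all genes, and −0.02 for the 21. The higher skew of the members' windows was not seen in their start sequences, but the 2 were not compared over the same bases. The start sequences lie mostly before the start, while 64.4% of the members' WT DMSO promoter windows had their middle after it.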

How the data were processed

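The 9 deposited peak lists were used, 1 for each immunoprecipitation, and the 9 inputs have no list of their own. Groups were taken from the sample titles. Per the methods and the processing notes, the authors trimmed reads (Cutadapt 1.13), aligned them to hg38 (STAR 2.6.1d), filtered them for proper pairs (SAMtools 1.3.1), dropped duplicates (Picard) and masked excluded regions (bedtools 2.29.2). Peak calling by MACS2 used paired fragments, each library's own input, a q threshold of 0.01 and a summit search (the notes name version 2.2.6, the methods another). The deposited pileup is the authors' signal in fragments at the summit, with no scaling between libraries stated. In the deposited fold enrichment, a ratio computed by the authors' peak caller, the summit is divided by its local background, and the −log10 p and −log10 q are those the authors obtained against input. Read depth per library is unknown. Mitochondrial windows were not used. The lists do not say if their starts are counted from 0 or 1, which can move a position by 1 bp.

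Windows were given to GENCODE 44 genes (most 5′ to most 3′ end) by their midpoint, and to promoters within 2 kb of the start. Intron and exon numbers are those of the Ensembl canonical transcript. The members, role groups, other helicases, markers and the rule for named genes were chosen with earlier results of these data known. That rule took DDX21, DDX5 and DHX9, the 5 highest promoters in each DMSO list, the 4 largest gains and losses past 1 in each comparison, members gained or lost in both lines, members with an anti-GFP window, the 3 with most windows and any with none. Other genes named (DDX6, DDX27, DDX49, DDX50, DDX51, DHX37, DDX18, DDX47, EIF4A1, EIF4A2 and MTREX among them) were chosen after their values were seen. With 1 library per condition no test was made. Alternatives were −log10 q of at least 5, equal list lengths, summits within 1 kb, overlap of at least 1 bp, ranks by pileup or −log10 q, and the highest summit of the gene. The canonical start, and leaving out members that share a start or overlap another gene, leaving out DDX6 or MTREX, and comparing summit positions, were added after seeing the data. The steps were tested on simulated lists. Python 3.11.15, pandas 2.3.3, numpy 2.4.6, scipy 1.17.1, matplotlib 3.10.9 and samtools 1.23.1 were used.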

Additional observations from a re-analysis of the deposited data

Results flagged for a closer look

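DHX36, DDX19B, DDX55 and DDX56 changed promoter rank past 1 in opposite directions in the 2 lines under the same treatment, and the difference was not tested, since each line has 1 library per condition. With PMA 2 h over DMSO, DHX36 changed by −1.60 in A3B KO and by 1.99 in WT cells, and DDX19B by −2.47 in A3B KO and 1.06 in WT cells. With PMA 6 h over DMSO, DDX55 changed by −1.25 in A3B KO and 1.91 in WT cells, DDX56 by 1.2 in A3B KO and −1.42 in WT cells, and DDX19B by −1.19 in A3B KO and 1.10 in WT cells. Not all of these held under the alternatives. DDX19B in WT cells lay between 0.13 and 0.996 at 2 h and between 0.12 and 1.11 at 6 h, and DDX56 in A3B KO cells between 0.16 and 1.2. The summits compared lay 457 bp apart for DDX19B in WT at 2 h, and 607 bp apart in A3B KO and 3167 bp apart in WT for DDX56. Those of DDX19B lay upstream of its annotated start, which is 44 bp from that of AARS1, so they may belong to either gene. These are 2 of 21 members ranked in all 4 lists at 2 h, where 2.36% of all such genes did this, and 3 of 28 at 6 h, where 2.72% did. For DHX36 and DDX19B the DMSO values already differed between the lines, at 12.3 in A3B KO and 5.90 in WT for DHX36 and 9.57 in A3B KO and 5.03 in WT for DDX19B. The same DMSO library enters both the change with PMA and the difference between lines.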

How the results depend on the processing

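Of 75 changes of promoter rank past 1 at members, 55 kept their sign under every alternative that gave a value and 15 also stayed past 1, among them those of DDX21 with PMA 2 h in both lines and of DDX31 in WT cells. Of 41 counts and shares, 27 moved under no alternative by more than their counting interval (shares) or 1.5 times (counts). With 23 to 34 ranked members a share of higher or lower promoters carries a wide interval, and for the moved and reversed values below the cause was not tested.

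With summits within 1 kb, higher members were 0% in A3B KO over WT at PMA 6 h and 0% in A3B KO at PMA 6 h over DMSO, and 6.67% in WT at PMA 2 h over DMSO. Ranked by pileup, higher members were 3.33% in A3B KO over WT with DMSO, 3.85% at PMA 2 h, 0% in A3B KO and 0% in WT at PMA 2 h over DMSO, and 0% in A3B KO and 6.06% in WT at PMA 6 h over DMSO, and lower members 16.1% in A3B KO at 6 h. Ranked by −log10 q, higher members were 0% in A3B KO and 4.35% in WT at PMA 2 h over DMSO and 3.23% in A3B KO at 6 h, and lower members there 25.8%. With the highest summit of the gene, 25.5% were lower and 23.4% higher in A3B KO at 6 h over DMSO, and 23.9% higher and 13.0% lower in A3B KO over WT at 6 h, where the order turned. Without members that share a start, 9.09% were higher and 0% lower in A3B KO over WT with DMSO. Over all alternatives the lower members at PMA 2 h numbered 6 to 11 in A3B KO and 4 to 11 in WT, and the higher ones 0 to 5 and 0 to 9. At 6 h the lower ones numbered 5 to 13 in A3B KO and 4 to 10 in WT, and the higher ones 0 to 11 and 2 to 10.

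Anti-GFP windows at −log10 q of at least 5 were at 2 members with doxycycline and PMA, 1 with doxycycline and DMSO and 1 without doxycycline. With equal list lengths they were at 2 members with doxycycline and PMA and 2 with doxycycline and DMSO.

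Signs turned as follows. For A3B KO over WT they turned by pileup at DDX25 with DMSO (−0.18) and DDX21 at 2 h (−0.46), and within 1 kb at DDX3X at 6 h (−0.43). With the highest summit of the gene they turned at DDX5 with DMSO (−0.095), DDX25 at 2 h (−0.015), and DHX9 (0.40), DHX57 (0.79), DHX32 (2.47) and DDX24 (−1.70) at 6 h. For PMA over DMSO in A3B KO they turned by pileup at DDX24 (−0.33) and DDX28 (0.31) at 6 h, and within 1 kb at DHX34 at 6 h (−0.021). With the highest summit of the gene they turned at DHX32 (0.077), DDX6 (1.42) and DDX52 (−0.50) at 2 h, and DHX15 (0.17), DHX29 (1.01), DHX32 (2.85) and DDX24 (−2.31) at 6 h. In WT cells at 6 h they turned at DDX19A (−1.10) with the highest summit of the gene and at DDX3X (0.42) within 1 kb. No paired analysis was possible because each condition has 1 library.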
